A study of Mus musculus with 20 samples.

Results

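The Src family kinases Fyn, Lyn, Src, Yes1, Fgr and Lck and their regulators Csk, Pag1 and Ptpn6 were examined in sorted mouse CFU-E, the committed red cell progenitors of the bone marrow. These 9 genes were chosen by name, all 9 were found among the 37748 entries of the expression table, and 6 of them passed the filter on low values (5 or more of the 20 libraries with a value of 1 or more). The rule for these genes is their names and uses no threshold on the values. The 4 groups, with 5 libraries each and a separate animal number for each library, were Mx1-Cre Srsf2P95H/+ mice (called P95H here) given phenylhydrazine (PHZ), P95H mice given phosphate-buffered saline (PBS), Mx1-Cre mice given PHZ and Mx1-Cre mice given PBS. PHZ destroys circulating red cells and so drives red cell production. It was injected under the skin on day 0 and again on day 1, at 30 mg/kg each time, and the progenitors were collected on day 4. The P95H mice carry the mutant allele of the splicing factor Srsf2 in the heterozygous state. All 4 groups carry the Mx1-Cre transgene, whose interferon-responsive promoter is active in many cell types besides red cell progenitors, so the controls share the transgene and differ by the Srsf2 allele. The labels used here state no age.

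Src family kinases are membrane-anchored tyrosine kinases that pass signals on from receptors which have no kinase activity of their own. Csk, the C-terminal Src kinase, phosphorylates a tyrosine in their tail and so closes them into an inactive form, and Pag1 (also called Cbp) is a membrane adaptor that brings Csk to its substrates. Ptpn6 (SHP-1) is a tyrosine phosphatase that is recruited to the erythropoietin receptor and to inhibitory receptors and turns signalling down. In red cell progenitors Lyn takes part in signalling from the erythropoietin receptor and from Kit. The title of the study names missplicing of FYN as a link between mutant SRSF2 and mTORC1 signalling, and the comparisons below ask how far the mRNA level per gene of Fyn and its relatives differed by genotype and by PHZ.

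Fyn exists in 2 main protein forms that differ by a pair of mutually exclusive exons. These encode part of the linker between the SH2 and kinase domains and the start of the kinase domain. In the GENCODE M21 annotation of GRCm38, Fyn has 8 coding transcripts, of which 6 span this position. The upstream exon, 165 bases and 55 codons long, occurs in 1 of them (Fyn-202, exon 9, chr10:39529437-39529601, plus strand) and belongs to the form best known from brain (FynB). The downstream exon, 156 bases and 52 codons long, occurs in 4 of them (Fyn-201, exon 9, chr10:39529919-39530074, plus strand) and belongs to the form best known from T cells and other blood cells (FynT), and 1 of the 6 has neither. The exons are shown because the choice between them changes the protein but not the level per gene reported below. Capitals mark every match to CCNG or GGNG on the sense strand, overlapping matches included, the exonic motifs that human SRSF2 is known to bind, with the P95H form preferring CCNG.
Fyn-202 exon 9: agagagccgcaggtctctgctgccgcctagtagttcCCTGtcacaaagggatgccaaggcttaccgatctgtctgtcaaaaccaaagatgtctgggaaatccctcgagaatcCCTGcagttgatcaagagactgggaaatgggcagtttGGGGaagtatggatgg
Fyn-201 exon 9: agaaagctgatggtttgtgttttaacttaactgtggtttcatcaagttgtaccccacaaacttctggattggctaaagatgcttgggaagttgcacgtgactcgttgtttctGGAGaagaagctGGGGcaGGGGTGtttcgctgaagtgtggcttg
The upstream exon holds 2 matches to CCNG and 1 to GGNG. The downstream exon holds 0 matches to CCNG and 4 to GGNG. Of the 910 internal coding exons of 165 bases in the same annotation, 93.8% hold at least 1 CCNG and 87.8% at least 1 GGNG, with medians of 3 and 2 matches. Of the 941 such exons of 156 bases, 95.1% hold a CCNG and 87.9% a GGNG, with the same medians of 3 and 2. A match is a run of letters and not a shown binding site. The values per gene sum the transcripts of a gene, so splicing was not analysed here.

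The labels do not state the unit of the values, which are called TPM-like here from their form. With the factor per library divided out, the lowest values above 0 were smaller for longer transcripts, as values scaled for length are. Among protein-coding genes with 1 annotated transcript that were at 0 in at least 10 libraries, the median of the lowest value above 0 was 0.12 for 110 transcripts under 1000 bases, 0.06 for 336 of 1000 to 3000 bases and 0.04 for 168 of 3000 bases or more. Levels are set side by side between genes on that reading of the unit. Sums per library ran from 924763 to 1085047, and the read depth behind single values is unknown. The first principal component of all tested entries held 44.2% of the variance and separated all PHZ libraries from all PBS libraries. All 12 erythroid markers passed the filter, with Gata1 between 172 and 247, Klf1 between 289 and 404 and the sort marker Eng (CD105) between 84.0 and 126 in every library, whereas Slamf1 (CD150) and Ly6a (Sca-1), against which the cells were gated, reached at most 0.161 and 1.07. Granulocyte and monocyte markers stood out by library. The summed level of these 18 genes, led by S100a9, was 154 to 578 in P95H PHZ, 551 to 2417 in P95H PBS, 148 to 1049 in Mx1-Cre PHZ and 443 to 929 in Mx1-Cre PBS, and P95H PBS replicates 3, 4 and 5 had the 3 highest sums of all libraries (1391, 1793 and 2417).

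The order of the members was nearly fixed across the libraries. Csk was the highest of the 9 genes and Ptpn6 the second in 20 of 20 libraries. Csk (ENSMUSG00000032312, chr9:57626646-57653631, minus strand) averaged 118 ± 6.31 in P95H PHZ, 127 ± 8.34 in P95H PBS, 126 ± 8.54 in Mx1-Cre PHZ and 124 ± 3.75 in Mx1-Cre PBS (SD, n = 5 in every group here and below). The level of this inhibitory kinase was above the summed level of the 6 member kinases in every group. These kinases summed to 17.1 ± 0.6995 in P95H PHZ, 16.6 ± 1.84 in P95H PBS, 17.1 ± 1.24 in Mx1-Cre PHZ and 15.5 ± 1.53 in Mx1-Cre PBS, and the ratio of Csk to that sum averaged 6.91 in P95H PHZ, 7.72 in P95H PBS, 7.415 in Mx1-Cre PHZ and 8.05 in Mx1-Cre PBS.

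Lyn and Fyn made up most of this sum. Lyn (ENSMUSG00000042228, chr4:3678115-3813122, plus strand) was above Fyn in 19 of 20 libraries. Its mean share of the kinase sum was 51.5% in P95H PHZ, 46.65% in P95H PBS, 53.5% in Mx1-Cre PHZ and 47.8% in Mx1-Cre PBS, and the mean share of Fyn lay between 38.5% and 41.7% in every group. Lck, the kinase best known from T cells, held 4.19% to 6.925% on average per group. The remaining kinases were low. Fgr, a kinase typical of myeloid cells, held 1.36% to 4.73% on average. Src and Yes1, the widely expressed members, reached no value of 1 in any library. Yes1 was the lowest of the 9 genes in 19 of 20 libraries and was listed at 0 in 4 libraries.

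**Figure D1:**
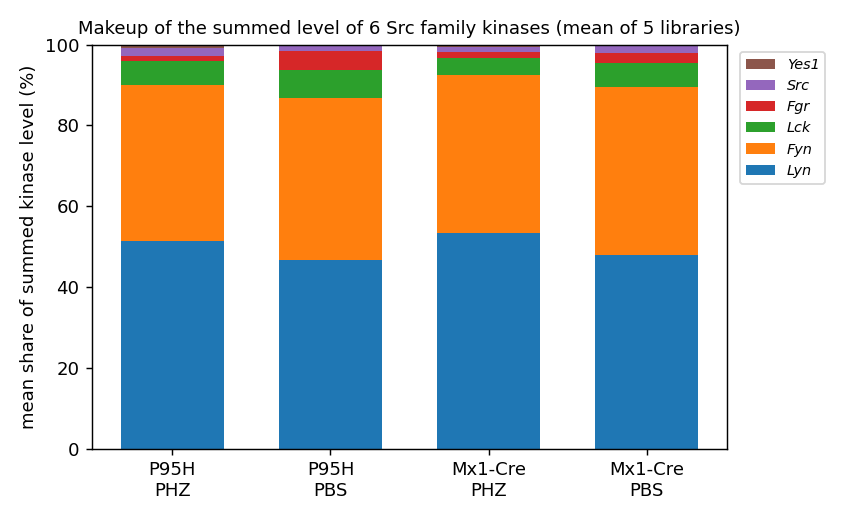
Mean share (%, y axis) of each kinase in the summed level of the 6 Src family kinases, per group of 5 libraries (x axis). Lyn and Fyn fill most of every bar, and the Lyn segment is larger in the PHZ bars (51.5% in P95H, 53.5% in Mx1-Cre) than in the PBS bars (46.65% in P95H, 47.8% in Mx1-Cre).

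Fyn did not differ detectably by genotype or by PHZ at the level of the gene. Fyn (ENSMUSG00000019843, chr10:39368855-39565381, plus strand) had values of 6.69, 6.56, 6.45, 7.40 and 5.87 in P95H PHZ and of 5.86, 5.81, 6.60, 6.85 and 8.27 in P95H PBS. In Mx1-Cre mice it had 5.87, 6.55, 7.38, 5.998 and 7.68 after PHZ and 7.30, 6.71, 5.90, 5.49 and 7.02 after PBS. The 4 groups overlapped, and their means lay between 6.48 and 6.69. In limma the log2 fold change of P95H against Mx1-Cre was -0.015 under PHZ (95% interval -0.21 to 0.18, adjusted p = 0.949) and 0.034 under PBS (-0.16 to 0.23, adjusted p = 0.913). The log2 fold change of PHZ against PBS was -0.010 in P95H (-0.21 to 0.19, adjusted p = 0.95) and 0.039 in Mx1-Cre (-0.16 to 0.24, adjusted p = 0.789). Each of these signs turned under some alternative scaling or without some library, so no direction is given for Fyn.

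Pag1, the adaptor that brings Csk to the membrane, rose after PHZ in both genotypes. Pag1 (ENSMUSG00000027508, chr3:9687479-9833679, minus strand) had 8.07, 9.94, 10.02, 7.89 and 8.38 in P95H PHZ against 4.01, 4.67, 4.78, 3.62 and 3.83 in P95H PBS. In Mx1-Cre mice it had 8.74, 9.94, 9.03, 7.99 and 6.12 after PHZ against 4.54, 4.39, 4.12, 3.93 and 4.25 after PBS. Every PHZ library lay above every PBS library of its genotype, with the lowest PHZ value in Mx1-Cre replicate 5. The ratio of group means was 2.12 in P95H and 1.97 in Mx1-Cre. The log2 fold change was 0.93 in P95H (SE 0.101, adjusted p = 7.68e-07) and 0.82 in Mx1-Cre (SE 0.101, adjusted p = 3.98e-06). Of the 6 members tested in P95H, Pag1 was the 1 that rose and Ptpn6 the 1 that fell, against a background of 30.2% of all 10890 entries called in this comparison (12.6% higher, 17.7% lower). In Mx1-Cre, 2 of 6 rose (Pag1 and Lyn) and 1 fell (Ptpn6), against a background of 31.9% (17.0% higher, 14.9% lower). The groups did not overlap for 2 of 6 members in either genotype, against 17.6% of entries in P95H and 22.4% in Mx1-Cre. A share of 6 members is too coarse to be set apart from these backgrounds. The median log2 fold change of the 6 members was -0.047 in P95H and 0.030 in Mx1-Cre, beside -0.015 and -0.0015 for all entries tested.

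Csk itself did not pass the test in either genotype, so the adaptor was also higher relative to its kinase after PHZ. Pag1 amounted to 7.52% ± 1.07 of the Csk level in P95H PHZ (range 6.25% to 8.75%), against 3.31% ± 0.573 in P95H PBS (2.71% to 4.06%). In Mx1-Cre it amounted to 6.71% ± 1.51 after PHZ (4.50% to 8.67%), against 3.42% ± 0.174 after PBS (3.21% to 3.62%). The ranges of PHZ and PBS did not overlap in either genotype. The log2 fold change of Csk after PHZ was -0.11 in P95H (SE 0.0544, adjusted p = 0.143) and 0.021 in Mx1-Cre (SE 0.0544, adjusted p = 0.802). The sign in Mx1-Cre turned under quantile normalization, under library weights and without Mx1-Cre PHZ replicate 5. Pag1 was above Fyn in 9 of 20 libraries, namely all 5 of P95H PHZ, 4 of Mx1-Cre PHZ and 0 of the PBS groups. The Pag1 call held in all 23 alternatives tried in each genotype, with log2 fold changes of 0.59 to 1.06 in P95H and 0.53 to 0.95 in Mx1-Cre.

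**Figure D2:**
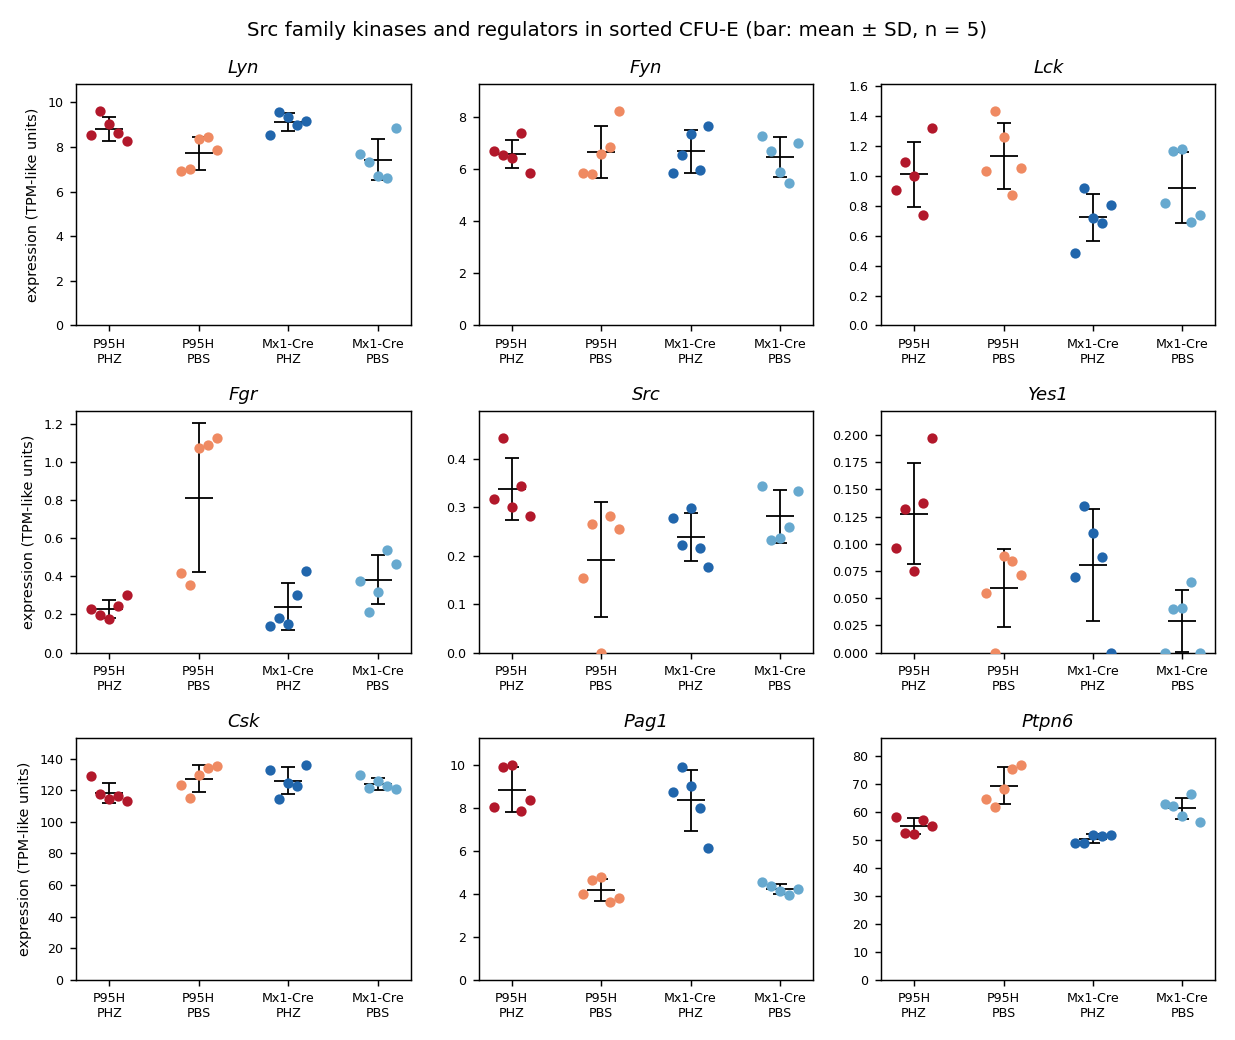
Expression (y axes, TPM-like units) of the 9 genes in every library, by group (x axes). Points are libraries and bars are means ± SD of 5. The Pag1 points of both PHZ groups (6.12 to 10.02) lie above all PBS points (3.62 to 4.78), while the 4 groups overlap for Fyn.

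Lyn, the most abundant of the 6 kinases, rose after PHZ in Mx1-Cre and did not pass the test in P95H. Lyn had 8.53, 9.64, 9.03, 8.64 and 8.27 in P95H PHZ against 6.90, 7.02, 8.36, 8.46 and 7.86 in P95H PBS. It had 8.52, 9.59, 9.33, 8.97 and 9.18 in Mx1-Cre PHZ against 7.69, 7.35, 6.69, 6.61 and 8.84 in Mx1-Cre PBS. In each genotype 4 of 5 PHZ libraries lay above all PBS libraries. The log2 fold change was 0.17 in P95H (SE 0.0759, 95% interval 0.016 to 0.33, adjusted p = 0.0877) and 0.27 in Mx1-Cre (SE 0.0759, interval 0.11 to 0.43, adjusted p = 0.0102), where the ratio of means was 1.23. The difference between the effects was itself not called (log2 -0.094, interval -0.32 to 0.13, adjusted p = 0.841), so the genotypes are not shown to differ. With the factor per library divided out, Lyn also passed in P95H (log2 fold change 0.27, adjusted p = 0.0205). That setting also moved the median of all entries in this comparison by 0.095, from -0.015 to 0.080. The added change of Lyn is therefore not set apart from a shift of the whole table. The ratio of Lyn to Fyn averaged 1.34 ± 0.121 in P95H PHZ and 1.17 ± 0.126 in P95H PBS, and 1.38 ± 0.135 in Mx1-Cre PHZ and 1.15 ± 0.0828 in Mx1-Cre PBS. These ranges overlapped in both genotypes (1.17 to 1.47 against 0.951 to 1.27 in P95H, and 1.196 to 1.496 against 1.05 to 1.26 in Mx1-Cre).

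Ptpn6, the phosphatase SHP-1, fell after PHZ in both genotypes. Ptpn6 (ENSMUSG00000004266, chr6:124720707-124738714, minus strand) had 58.4, 52.4, 52.3, 57.3 and 54.9 in P95H PHZ against 64.6, 61.7, 68.4, 75.3 and 76.9 in P95H PBS. In Mx1-Cre it had 49.0, 48.9, 51.9, 51.3 and 51.6 after PHZ against 62.9, 62.2, 58.8, 66.5 and 56.5 after PBS. Every PHZ library lay below every PBS library of its genotype. The log2 fold change was -0.33 in P95H (SE 0.0596, adjusted p = 0.000303, ratio of means 0.793) and -0.27 in Mx1-Cre (SE 0.0596, adjusted p = 0.00157, ratio of means 0.824). In P95H the granulocyte and monocyte markers moved the same way, with 16 of 16 tested markers lower after PHZ, and the 2 libraries with the highest Ptpn6 values (P95H PBS replicates 4 and 5) also had the highest marker sums. With the mean of these markers as a covariate the log2 fold change in P95H was -0.19 and no longer passed (adjusted p = 0.137), and without replicates 4 and 5 of P95H PBS it was -0.23 (adjusted p = 0.00912). The median log2 fold change of the 16 markers was -1.85 in P95H and -0.89 in Mx1-Cre. Some of the 16 passed the filter only with the help of the PBS libraries, where they were higher. Examples are Csf3r and Cebpe, which reached at most 0.527 and 0.997 in P95H PHZ. The count of 16 of 16 in P95H is therefore not free of the filter. In Mx1-Cre, where 1 of the 16 passed the test (lower), the log2 fold change of Ptpn6 with the covariate was -0.21 (adjusted p = 0.0178). Mx1-Cre PBS replicate 5 had the highest marker sum of its group (929) and the lowest Ptpn6 value (56.5). Mx1-Cre PHZ replicate 5 had a sum of 1049, above every Mx1-Cre PBS library, and a Ptpn6 value of 51.6, below all of them. In bulk samples such as these, fewer cells of a type and less RNA per cell cannot be told apart.

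Fgr, a kinase of granulocytes and monocytes, was low in every library and highest in those with the highest marker sums. Fgr (ENSMUSG00000028874, chr4:132974095-133001910, plus strand) had 0.231, 0.198, 0.179, 0.246 and 0.301 in P95H PHZ against 0.416, 0.354, 1.07, 1.09 and 1.13 in P95H PBS. In Mx1-Cre it had 0.139, 0.183, 0.150, 0.303 and 0.428 after PHZ against 0.374, 0.211, 0.318, 0.540 and 0.466 after PBS. The 3 values above 1 came from P95H PBS replicates 3, 4 and 5, the libraries with the highest marker sums. Fgr failed the filter and was tested only in a fit of all 20259 entries with any value above 0, in which 16.9% of entries were called for PHZ in P95H and 15.4% for PHZ in Mx1-Cre. There its log2 fold change was -0.53 in P95H (SE 0.117, adjusted p = 0.00349, ratio of means 0.284, no overlap) and -0.16 in Mx1-Cre (SE 0.117, adjusted p = 0.454). In the same fit with the marker covariate the P95H value was -0.11 (adjusted p = 0.708), and without P95H PBS replicates 4 and 5 it was -0.37 (adjusted p = 0.0577). Between the genotypes Fgr was not called. Under PBS its log2 fold change of P95H against Mx1-Cre was 0.37 (95% interval 0.12 to 0.61, unadjusted p = 0.00548, adjusted p = 0.192). P95H PBS replicates 3, 4 and 5 lay above all Mx1-Cre PBS libraries.

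**Figure D3:**
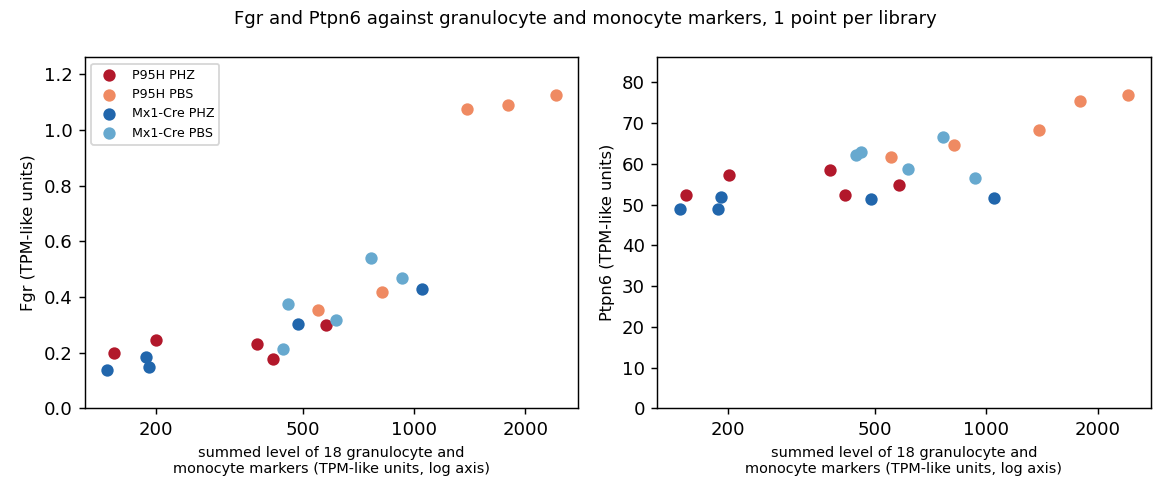
Fgr (left y axis) and Ptpn6 (right y axis), both in TPM-like units, against the summed level of 18 granulocyte and monocyte markers (x axes, log scale), 1 point per library, coloured by group. P95H PBS replicates 3, 4 and 5 stand at the right with sums of 1391, 1793 and 2417, and have the highest values of both genes. Mx1-Cre PHZ replicate 5, with a sum of 1049, lies below all PBS libraries for Ptpn6 (51.6).

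Lck was low, and no comparison called it. Lck (ENSMUSG00000000409, chr4:129548344-129573641, minus strand) had 0.904, 1.09, 0.997, 0.738 and 1.32 in P95H PHZ and 1.03, 1.44, 1.26, 0.870 and 1.05 in P95H PBS. In Mx1-Cre it had 0.485, 0.916, 0.719, 0.685 and 0.803 after PHZ and 0.820, 1.17, 1.18, 0.691 and 0.740 after PBS. The nearest to the threshold was P95H against Mx1-Cre under PHZ, where 3 of 5 P95H libraries lay above all controls (log2 fold change 0.22, SE 0.107, adjusted p = 0.233). Lck was above 0 in every library, whereas the T cell receptor genes Cd3e, Cd3d and Cd3g were listed above 0 in 1, 3 and 1 of 20 libraries and reached at most 0.252, 0.101 and 0.314. Of the 12 T and NK cell markers only Nkg7 passed the filter and Ncr1 was at 0 throughout, and the summed level of the list was 0 to 0.952 in P95H PHZ, 1.63 to 7.59 in P95H PBS, 0.190 to 1.54 in Mx1-Cre PHZ and 1.21 to 3.14 in Mx1-Cre PBS. Nkg7, a gene of cytotoxic cells, led this sum, so it is no measure of T cells as such, and the part of other cells in the Lck values was not tested.

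Src (ENSMUSG00000027646, chr2:157418444-157471862, plus strand) and Yes1 (ENSMUSG00000014932, chr5:32611171-32687057, plus strand) were called in no comparison of the unfiltered fit, in which 3.73% of entries were called for P95H against Mx1-Cre under PHZ, 0.676% under PBS and 0.00494% for the interaction. Src had 0.317, 0.444, 0.301, 0.344 and 0.282 in P95H PHZ against 0.153, 0.266, 0, 0.283 and 0.256 in P95H PBS, with 4 of 5 PHZ libraries above all PBS libraries (log2 fold change 0.17, SE 0.0616, adjusted p = 0.0636). It ranged from 0.177 to 0.299 in Mx1-Cre PHZ and from 0.232 to 0.344 in Mx1-Cre PBS. Yes1 ranged from 0.0752 to 0.198 in P95H PHZ, 0 to 0.0887 in P95H PBS, 0 to 0.135 in Mx1-Cre PHZ and 0 to 0.0648 in Mx1-Cre PBS. At these levels a value of 0 says only that the gene is listed at 0.

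The comparison of the genotypes asks whether the heterozygous P95H allele changed these genes. In limma, 0 of 6 members were called in P95H against Mx1-Cre under PHZ, where 5.47% of all entries were called, and 0 of 6 under PBS, where 1.48% were called. At an unadjusted p under 0.05 the counts of these 6 were 0 under PHZ and 1 (Ptpn6) under PBS. Fgr, tested only in the unfiltered fit, also had an unadjusted p under 0.05 under PBS (0.00548, adjusted p = 0.192). The share of all entries at that unadjusted threshold is not given. Of the 6, Ptpn6 came nearest to the threshold under PBS. Under PHZ Lck came nearest (adjusted p = 0.233) and Ptpn6 next. For Ptpn6 under PHZ the 5 P95H libraries (52.3 to 58.4) lay above all 5 Mx1-Cre libraries (48.9 to 51.9). Its ratio of means was 1.09 and its log2 fold change 0.12 (95% interval -0.0034 to 0.24, adjusted p = 0.245). It was the 1 of 6 members without overlap there, against 6.95% of all entries, and 0 of 6 were without overlap under PBS, against 3.67%. Under PBS, 3 of 5 P95H libraries lay above all Mx1-Cre libraries (61.7 to 76.9 against 56.5 to 66.5), and the log2 fold change was 0.17 (interval 0.048 to 0.30, adjusted p = 0.17), which passed with library weights (0.19, adjusted p = 0.0425) and came down to 0.081 without P95H PBS replicates 4 and 5 (adjusted p = 0.68). For Pag1 the log2 fold change of P95H against Mx1-Cre was 0.082 under PHZ (adjusted p = 0.69) and -0.022 under PBS (adjusted p = 0.95), each with a sign that turned without some library. For Lyn it was -0.044 under PHZ (adjusted p = 0.793, with a sign that turned when the library factor was divided out or values were quantile normalized) and 0.050 under PBS (adjusted p = 0.811). The median of the 6 members was 0.033 under PHZ and 0.043 under PBS, beside -0.054 and -0.028 for all entries.

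The interaction, that is, whether PHZ acted differently in P95H and Mx1-Cre, was called for 0 of 6 members in limma, against a background of 0.0% of all entries called. At an unadjusted p under 0.05 the count was 0 of 6. The interaction of Pag1 was 0.10 on the log2 scale (95% interval -0.19 to 0.40, adjusted p = 0.867) and that of Fyn -0.049 (-0.33 to 0.23, adjusted p = 0.937). The intervals of all 6 members included 0 and were wide beside the PHZ effects of Lyn and Ptpn6. In the unfiltered fit the interaction was 0.22 for Src (95% interval 0.038 to 0.40, unadjusted p = 0.0204). For Fgr it was -0.37 (-0.72 to -0.027, unadjusted p = 0.0361). These intervals excluded 0, but the adjusted p was 0.808 for each, and both genes had failed the filter on low values.

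**Figure D4:**
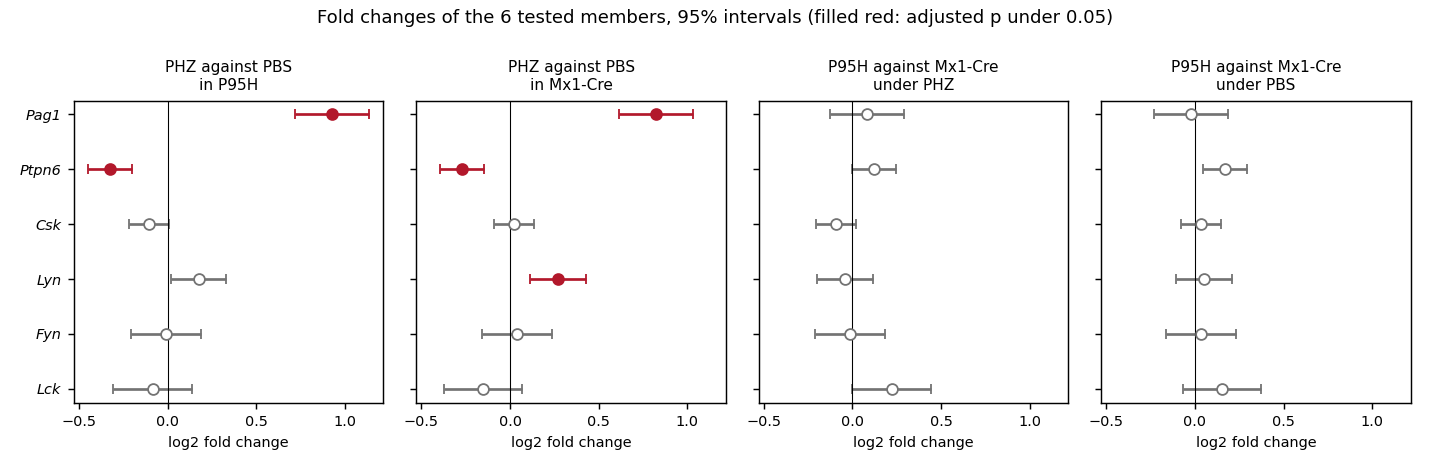
Log2 fold changes (x axes) with 95% intervals of the 6 members that passed the filter (rows) in the 4 pairwise comparisons (panels). Filled red points passed at an adjusted p under 0.05. Pag1 and Ptpn6 are filled in both PHZ panels and Lyn in the Mx1-Cre panel, and no point is filled in the genotype panels.

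Among the other genes of Src family signalling, PHZ changed adaptors and effectors in both directions, and 1 gene was called between the genotypes. Lists of other family kinases, phosphatases and related regulators, adaptors, substrates, inhibitory receptors and erythroid cytokine receptors held 66 genes, of which 48 passed the filter. After PHZ 6 of the 48 rose and 19 fell in P95H, and 7 rose and 10 fell in Mx1-Cre. Over all entries tested, 12.6% rose and 17.7% fell in P95H, and 17.0% rose and 14.9% fell in Mx1-Cre. These shares are the background for the counts of the single lists below as well. The median log2 fold change of the 48 genes was -0.16 in P95H and -0.14 in Mx1-Cre, beside -0.015 and -0.0015 for all entries. The count of genes that fell in P95H depended on the setting. It was 8 with the factor per library divided out, 2 with the marker covariate and 6 without P95H PBS replicates 4 and 5, a fit with fewer libraries. In Mx1-Cre the count of genes that fell was 8 with the factor divided out and 6 with the covariate. The shares of all entries called under these settings are not given, so changes of the whole table are not set apart. Dividing out the factor moved the median log2 fold change of all entries by 0.095 in P95H and 0.042 in Mx1-Cre. This holds for the calls of single genes after PHZ below as well. A call lost with the covariate is not by itself a smaller change, so the fold change is given beside it.

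Among adaptors, 1 of 14 tested genes rose and 5 fell in P95H, and 1 rose and 2 fell in Mx1-Cre. Gab2, a docking protein that links cytokine receptors to PI3-kinase and SHP-2, had the largest fold change of the genes named from the lists. It averaged 13.9 ± 2.75 in P95H PHZ against 3.54 ± 1.00 in P95H PBS (log2 fold change 1.72, SE 0.163, adjusted p = 1.42e-07), and 14.7 ± 2.13 in Mx1-Cre PHZ against 2.88 ± 0.849 in Mx1-Cre PBS (2.03, SE 0.163, adjusted p = 1.41e-08), with no overlap in either genotype. Fyb, the adaptor that Fyn phosphorylates in T cells, fell in both, to 20.9 ± 2.60 in P95H PHZ against 25.0 ± 1.49 in P95H PBS and to 22.6 ± 1.99 in Mx1-Cre PHZ against 29.2 ± 3.28 in Mx1-Cre PBS (log2 fold changes -0.26 and -0.35, adjusted p = 0.0207 and 0.00247). The Mx1-Cre call of Fyb held in all 23 alternatives and the P95H call in 19 of 23. The P95H call ended with the factor per library divided out (-0.16, adjusted p = 0.16), without P95H PBS replicates 4 and 5 (-0.26, adjusted p = 0.0722), without P95H PHZ replicate 1 and without P95H PBS replicate 2. Dok3, a docking protein that restrains signalling in myeloid and B cells, fell in P95H (-0.59, adjusted p = 0.00472), but not with the marker covariate (-0.16, adjusted p = 0.661), and its value in Mx1-Cre was -0.32 (adjusted p = 0.108). Gab1, a relative of Gab2, was the 1 of 48 list genes called between genotypes under PHZ, against 5.47% of all entries. It averaged 19.4 ± 2.59 in P95H PHZ against 25.2 ± 0.964 in Mx1-Cre PHZ without overlap (log2 fold change -0.37, SE 0.0853, adjusted p = 0.0128). With the factor per library divided out this call was lost (-0.31, adjusted p = 0.0954). That setting moved the median of all entries in this comparison by 0.056. Under PBS 0 of 48 were called in limma, against 1.48% of all entries, with 11 at an unadjusted p under 0.05. For the interaction 0 of 48 were called, against 0.0% of all entries, with 0 at an unadjusted p under 0.05. These percentages are for the adjusted p. The share of all entries at an unadjusted p under 0.05 is not given, so the 11 cannot be read as an excess.

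Among substrates and effectors, 5 of 18 rose and 6 fell in P95H, and 5 rose and 3 fell in Mx1-Cre. Btk, a Tec family kinase activated by Src family kinases, averaged 73.2 ± 5.04 in P95H PHZ against 57.8 ± 4.99 in P95H PBS, and 69.2 ± 4.67 in Mx1-Cre PHZ against 51.7 ± 2.71 in Mx1-Cre PBS, without overlap in either genotype (log2 fold changes 0.34 and 0.41). Its relative Tec fell in both (-0.43 in P95H, -0.53 in Mx1-Cre), to means of 0.703 in P95H PHZ and 0.414 in Mx1-Cre PHZ. Tec reached at most 0.897 in P95H PHZ and 0.480 in Mx1-Cre PHZ. It therefore passed the filter only through the PBS libraries, where it was higher. Was, a regulator of actin in blood cells, rose by 0.28 on the log2 scale in both. Plcg2, a phospholipase downstream of Btk, fell by 0.73 in P95H and by 0.40 in Mx1-Cre, and both calls were lost with the marker covariate (adjusted p = 0.136 and 0.195). With the covariate Plcg2 was at -0.37 in P95H and -0.22 in Mx1-Cre. Plcg2 reached at most 0.856 in P95H PHZ and had a median of 0.881 in Mx1-Cre PHZ. Its lowest values were 1.17 in P95H PBS and 1.03 in Mx1-Cre PBS. Like Tec, Plcg2 therefore passed the filter only through the PBS libraries, where it was higher. Its Mx1-Cre call also ended without Mx1-Cre PHZ replicate 1 or 3 or Mx1-Cre PBS replicate 4. The P95H call of Tec was lost with the covariate as well (adjusted p = 0.0635), but its log2 fold change was as large there (-0.45).

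Among the phosphatases and other proteins that act on the kinases, 0 of 9 rose and 3 fell in P95H, and 1 rose and 3 fell in Mx1-Cre. Unc119, a lipid-binding chaperone that carries and activates Src family kinases, averaged 29.9 ± 4.04 in P95H PHZ against 42.1 ± 2.98 in P95H PBS, and 28.8 ± 4.19 in Mx1-Cre PHZ against 41.1 ± 3.52 in Mx1-Cre PBS (log2 fold changes -0.49 and -0.51, adjusted p = 0.000387 and 0.000298). Ptprc (CD45), the phosphatase that opens the kinases, fell in both (-0.37 and -0.56), and so did Ptpn22, a phosphatase that works with Csk in T cells (-0.34 and -0.37). Ptpn22 was low and reached at most 0.585 in P95H PHZ and 0.761 in Mx1-Cre PHZ. It therefore passed the filter only through the PBS libraries, where it was higher. With the marker covariate these 3 lost their P95H calls, at -0.25 for Unc119 (adjusted p = 0.203), -0.028 for Ptprc (adjusted p = 0.936) and -0.13 for Ptpn22 (adjusted p = 0.628). In Mx1-Cre the covariate left Unc119 (-0.39) and Ptprc (-0.39, adjusted p = 0.0221) called and ended the call of Ptpn22 (-0.26, adjusted p = 0.0779). The P95H call of Ptprc held in 14 of 23 alternatives and ended without P95H PHZ replicate 1 or 3 or P95H PBS replicate 3, 4 or 5. The P95H call of Ptpn22 held in 18 of 22 and ended without P95H PBS replicate 5. Without P95H PBS replicates 4 and 5 together, Ptprc was at -0.19 (adjusted p = 0.291) and Ptpn22 at -0.20 (adjusted p = 0.198) in P95H. Ptprj (CD148), a receptor phosphatase that acts on the same tail tyrosine, rose in Mx1-Cre (0.20, adjusted p = 0.0348), a call that ended when any 1 of 5 libraries was left out (Mx1-Cre PHZ replicates 1, 2 and 3, Mx1-Cre PBS replicates 1 and 4) and with the marker covariate (0.15, adjusted p = 0.175). Ptprj had 0.16 in P95H (adjusted p = 0.079).

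Of the 10 inhibitory receptors that recruit Ptpn6, 4 passed the filter. In P95H 3 of them fell, namely Clec12a, a receptor of myeloid cells (-1.20, adjusted p = 0.00499), Cd72, a receptor of B cells (-0.34, adjusted p = 0.0194), and Lair1, a collagen receptor of many leukocytes (-0.32, adjusted p = 0.0326). None of the 4 was called in Mx1-Cre. All 3 P95H calls were lost with the marker covariate and without P95H PBS replicates 4 and 5, but the fold changes differed. With the covariate the sign of Clec12a turned (0.053, adjusted p = 0.895), Lair1 was at -0.22 (adjusted p = 0.446) and Cd72 was no smaller than before (-0.39, adjusted p = 0.133). Without replicates 4 and 5 Clec12a was at -0.72, Lair1 at -0.19 and Cd72 at -0.28. The call of Cd72 held in 17 of 22 alternatives and also ended without P95H PHZ replicate 3 or P95H PBS replicate 4. Cd72 had medians of 0.931 in P95H PHZ and 0.845 in Mx1-Cre PHZ, against a lowest value of 1.26 in P95H PBS. It passed the filter only with the help of the PBS libraries, where it was higher. The call of Lair1 held in 12 of 22 and ended without any 1 of 5 libraries (P95H PHZ replicates 1, 3 and 5, P95H PBS replicates 4 and 5). B cell markers were lower after PHZ too. The summed level of these 8 genes was 0.274 to 1.21 in P95H PHZ against 3.30 to 17.9 in P95H PBS, and 0.559 to 1.84 in Mx1-Cre PHZ against 2.06 to 6.87 in Mx1-Cre PBS. Cd79a, a part of the B cell receptor and the 1 of the 8 that passed the filter, fell in both genotypes (-1.25 in P95H, -0.71 in Mx1-Cre). It reached at most 0.274 in P95H PHZ and 0.352 in Mx1-Cre PHZ, so it passed only through the PBS libraries, where it was higher. The part of B cells in the values of Cd72 and of Plcg2, which these cells also use, was not tested. Of the erythroid cytokine receptors and Jak2, Kit fell in both genotypes (-0.77 in P95H, -0.80 in Mx1-Cre) and Jak2, the kinase bound to the erythropoietin receptor, fell as well (-0.32 and -0.54). Kit, by which the cells were gated, averaged 51.9 ± 12.9 in P95H PHZ against 87.7 ± 13.1 in P95H PBS, and 60.6 ± 5.72 in Mx1-Cre PHZ against 108 ± 27.6 in Mx1-Cre PBS. With the marker covariate both P95H calls were lost while most of the fold change remained (-0.66, adjusted p = 0.0798 for Kit and -0.27, adjusted p = 0.298 for Jak2). The P95H call of Jak2 held in 17 of 23 alternatives. It was also lost with the factor per library divided out (-0.22, adjusted p = 0.132), without P95H PBS replicates 4 and 5 (-0.30, adjusted p = 0.0988), without P95H PHZ replicate 2 and without P95H PBS replicate 2.

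**Figure D5:**
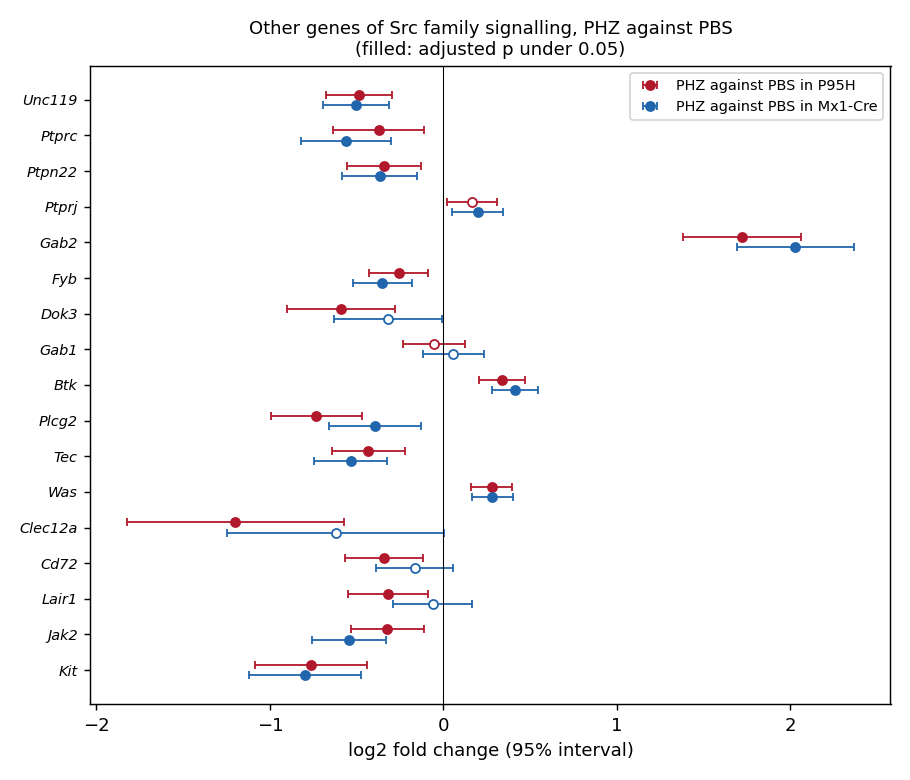
Log2 fold changes of PHZ against PBS (x axis) with 95% intervals for the 17 genes named from the lists (rows), in P95H (red) and Mx1-Cre (blue). Filled points passed at an adjusted p under 0.05. Gab2 stands apart at 1.72 in P95H and 2.03 in Mx1-Cre.

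Genes with the most similar pattern were sought for each called member by the root mean square difference of log2 values, each centred on its own mean over the 20 libraries, among 8133 genes. For Pag1, whose own root mean square deviation was 0.461, they were Atp13a3, a transport ATPase (0.1404), Pggt1b, a subunit of a protein prenyltransferase (0.152), and Bmp2k, a protein kinase (0.154). Atp13a3 averaged 176 in P95H PHZ against 103 in P95H PBS, and 166 in Mx1-Cre PHZ against 107 in Mx1-Cre PBS. For Lyn (0.149) they included Eprs, a transfer RNA synthetase (0.0728), and Ddx54, an RNA helicase (0.0784). For Ptpn6 (0.186) they were Oat, the ornithine aminotransferase (0.0811), Gatd1 (0.0877) and Acaa1a, a thiolase of peroxisomes (0.0897). Oat averaged 228 in P95H PHZ against 286 in P95H PBS, and 224 in Mx1-Cre PHZ against 266 in Mx1-Cre PBS.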

How the data were processed

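RNA of sorted CFU-E was sequenced in 20 libraries of 4 groups. The authors deposited 1 table with a normalised signal for each gene. The submitters' processing notes name RSEM 1.2.4, TopHat2 2.0.8b, TopHat and Bowtie as tools, and mm10, GRCm38, hg19 and GRCh37 as builds, without their roles. In each library every deposited signal value was a whole multiple of 0.01 times 1 factor (0.940 to 1.10, tolerance 0.01), the form of rounded TPM rescaled per library. The origin of the factors is not stated in the labels. The table holds no counts, so intervals cover the spread between libraries only. Symbols and positions came from GENCODE M21 on GRCm38 (35986 entries with a symbol, 4 of them named in the table itself).

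Values were analysed as log2(value + 1), which understates the changes of low genes. The 10890 entries that reached 1 in 5 or more libraries were tested. A model with a mean for each of the 4 groups was fitted to all 20 libraries with limma 3.58.1 (R 4.3.3), with trended, robust moderation. P-values were two-sided and adjusted after Benjamini and Hochberg across the entries tested, with 0.05 as threshold. The fits were tested on simulated data. The members, the gene and marker lists and the tests were chosen with earlier results of these data known. Up to 4 genes per list were named, those with the smallest adjusted p in any pairwise comparison, and 3 similar genes per called member, with a mean of at least 5 and no predicted-gene name. A few genes that the lists or this rule name are not reported here. The alternatives were TMM factors (computed without weights), quantile normalization, the factor divided out, pseudocounts of 0.1 and 5, no filter (20259 entries) and a filter at 5 (8741), the compared groups alone, no trend or robust moderation, library weights, a replicate block, the marker covariate, leaving out P95H PBS replicates 4 and 5, and leaving out each library. The alternatives to the unfiltered Fgr value were chosen after seeing the data. Python 3.11.15, pandas 2.3.3, numpy 2.4.6 and matplotlib 3.10.9 were used for summaries and figures.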

Additional observations from a re-analysis of the deposited data

Results flagged for a closer look

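Csk in P95H PHZ replicate 1 stood apart from the other libraries of its group. Its value was 129.1, against 113 to 118 in the other 4 libraries, and its gap to the next library was 0.724 of the group's range on the log2 scale, above the critical value of 0.71 for 5 samples. It was the 1 group of 36 (9 genes in 4 groups) in which a library stood apart by this measure, and chance gives about 1 in 20 such groups. Without that library the log2 fold change of Csk after PHZ in P95H was -0.14 (adjusted p = 0.0526).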

How the results depend on the processing

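The count of members called was unchanged when any 1 library was left out (2 to 2 for PHZ in P95H, 3 to 3 for PHZ in Mx1-Cre and 0 to 0 for the other 3 comparisons). It fell to 1 for PHZ in P95H with the marker covariate, where Ptpn6 lost its call (log2 -0.19), and came to 1 (Ptpn6) for P95H against Mx1-Cre under PBS with library weights. With the replicate number as a replicate block the counts were 2 and 3 for PHZ in P95H and Mx1-Cre and 0 for the others. Deviations of same-numbered libraries had r between -0.306 and 0.441 over 30 pairs, 13 of them over 0.1. Libraries with different numbers were not compared, so these values cannot decide whether the numbers pair the libraries. The block moved the genes of the other lists that fell in Mx1-Cre to 15, against 10, and the share of all entries called with it is not given.

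Of 1389 alternative values of single genes, 1280 kept their direction and side of the threshold, 61 lost their call, 3 gained one and 45 turned their sign. All but 1 of the turned signs belonged to members in comparisons where they were not called. For Fyn they were 0.031 (quantile normalization), 0.082 (factor divided out), 0.16 (covariate) and 0.097 (without P95H PBS replicates 4 and 5) for PHZ in P95H, and -0.017 (library weights) for PHZ in Mx1-Cre. For P95H against Mx1-Cre they were 0.023 (quantile), 0.037 (factor) and 0.032 (weights) under PHZ, and -0.052 (covariate) and -0.073 (without replicates 4 and 5) under PBS. For the interaction of Fyn they were 0.0025 (factor), 0.034 (covariate) and 0.058 (without replicates 4 and 5). Lyn under PHZ had 0.0051 (quantile) and 0.011 (factor). Csk had -0.048 (quantile) and -0.0062 (weights) for PHZ in Mx1-Cre, and -0.0175 (covariate) and -0.018 (without replicates 4 and 5) under PBS. Pag1 under PBS had 0.0060 (quantile), 0.13 (covariate) and 0.063 (without replicates 4 and 5). The interactions of Pag1 (-0.040, covariate), Lck (-0.0070, without replicates 4 and 5) and Ptpn6 (0.0045 quantile, 0.0067 factor, 0.015 covariate, 0.040 without replicates 4 and 5) turned as well, and so did Clec12a (0.053, covariate). With 1 library left out, Fyn ranged from -0.051 to 0.060 for PHZ in P95H, -0.010 to 0.079 in Mx1-Cre, -0.055 to 0.030 and -0.036 to 0.075 between genotypes under PHZ and PBS, and -0.090 to 0.021 for the interaction. Csk ranged from -0.0068 to 0.055 for PHZ in Mx1-Cre, and Pag1 from -0.013 to 0.14 and -0.062 to 0.018 between genotypes under PHZ and PBS. The causes were not tested.

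Among the other lists, the genes that fell in P95H numbered 8 with the factor divided out, 2 with the covariate, 6 without P95H PBS replicates 4 and 5, and 12 to 19 with 1 library left out (12 without P95H PBS replicate 4), against 19 reported. In Mx1-Cre they numbered 21 with library weights and 8 to 16 with 1 library left out (16 without Mx1-Cre PHZ replicate 5), against 10 reported. The shares of all entries called under these settings are not given, so these counts do not set the lists apart from the whole table. Lck passed for PHZ in Mx1-Cre with library weights (-0.23, adjusted p = 0.041). The compared groups alone were not run for the interaction, which uses all 4 groups. The filter at 5 leaves out Lck. Depth per value is unknown, which limits what can be said of Src, Yes1 and Fgr.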
